A study of Mus musculus with 21 samples.

Results

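The data compare wells labelled DC2 with wells labelled DC0 on plate 8 of a single-cell RNA study of mouse back skin, a plate that carried both populations in numbers. Wells were kept when their summed gene values, spike-in RNAs excluded, reached 1000, which left 80 of 122 DC2 wells and 107 of 124 DC0 wells, or 187 of the 1967 wells in the deposited table. No expression of any gene entered the choice. All cells came from dorsal skin of CD1 embryos at embryonic day 15 (E15.0), and were live cells sorted by flow cytometry into plates. Libraries were made with SORT-seq, a robot-run version of CEL-Seq2, which gives every RNA molecule a random barcode (unique molecular identifier, UMI). Both populations share this strain, age and tissue, and the labels of the plates give no treatment, sex or genotype for either. DC stands for dermal condensate in the labels, where DC1 and DC2 are named as condensate stages; DC0 is not defined there, and the bulk samples of the same series, which name a pre-DC group, were not analysed here.

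A dermal condensate is a cluster of mesenchymal cells that gathers below the thickened epidermis of an early hair follicle and later becomes the dermal papilla, the signalling centre of the follicle. Dermal fibroblasts that join it stop dividing, change their adhesion and motility, and start to secrete signals for the overlying epithelium. The pathways followed here are known players in this tissue: WNT, FGF, BMP and Hedgehog signals exchanged with the epithelium, and Notch, in which a membrane ligand such as Delta-like 1 on a cell activates a receptor on its neighbour and switches on HES and HEY repressors through the DNA-binding protein RBPJ.

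The kept DC2 wells held a median of 12269.5 UMIs and 3779.5 genes, and the kept DC0 wells 13748 UMIs and 3807 genes. The wells nearest the minimum had 1014.8 UMIs in DC2 and 1000.68 in DC0 on the kept side, and 952.35 in DC2 and 981 in DC0 on the other. Of the DC2 wells 34.4% were left out (exact binomial interval 26.1 to 43.6%), against 13.7% of the DC0 wells (8.19 to 21%). DC2 wells were numbered 247 to 376 and DC0 wells 123 to 246, so plate position and population cannot be told apart on this plate. Plates 1 to 7, which add 26 DC2 and 23 DC0 wells, were summed per plate and population and used to check direction; plates 2 to 7 had both populations in sums of 2 to 6 wells. The labels do not say whether the wells of these plates were named by the sort or from clusters of their expression, and in the second case the genes that separate the populations there were partly selected. Nor do they say whether plates came from separate embryos, so the spread between plates behind the p-values below may be technical. For the edgeR test described below, the spread was estimated jointly over sums of DC0, DC1, DC2 and fibroblast wells. In sums of 2 to 6 wells it also holds differences between single wells. The fibroblast sums pooled many more wells and hold less of these differences. The shared spread may therefore be too low for DC2 against DC0, and the p-values too small. With DC2 and DC0 sums alone edgeR called 52 genes higher and 30 lower. Only 902 genes were tested there, against 2017 with all sums, so these counts do not show the size of that effect.

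The label was set against marker genes of each cell type. All 10 condensate markers reached the level minimum described below, and 5 of them were at least 2-fold higher in DC2 wells (Cxcr4, Ndp, Sox18, Prdm1 and Sox2) and none lower; their summed level had a median of 44.9 UMIs per 10000 in DC2 wells (range 0 to 99.8) and 22.5 in DC0 wells (0 to 80.1). Across plates 1 to 7 edgeR's test, described below, called 2 of 9 higher (Cxcr4 and Sox18) and 1 lower (Tbx18), and their sum over plates 2 to 7 was 41.1 ± 14.3 in DC2 and 34.1 ± 17.2 in DC0 (SD, n = 6 each), higher in DC2 on 4 of 6 plates. Of 7 dermal fibroblast markers at that level none was 2-fold higher and 3 were lower in DC2 (Twist2, Lum and Dcn), with a summed median of 89.8 in DC2 wells (46.3 to 289) and 165 in DC0 wells (30.2 to 570). No keratinocyte, melanocyte, endothelial, skeletal muscle, immune or erythroid marker reached the level minimum on plate 8. Their summed levels there averaged at most 0.390 in DC2 wells and 0.527 in DC0 wells, both for keratinocytes. Over plates 2 to 7 keratinocyte markers summed to 3.07 ± 3.83 in DC2 and 1.75 ± 1.75 in DC0 (SD, n = 6 each). Erythroid markers summed to 1.25 ± 1.46 in DC2 and 0.301 ± 0.283 in DC0. The highest DC2 sums of both, 10.2 and 3.73, were those of plate 6, and their part in the calls across plates was not tested. Schwann or neural crest markers summed to a median of 7.34 in DC2 wells (0 to 25.6) and 6.89 in DC0 wells (0 to 60.0), and 2 of 8 reached the minimum, neither past 2-fold. Of 8 fascia or adipogenic progenitor markers only Dlk1 reached the minimum, and it was higher in DC2. Their sum had a median of 24.2 in DC2 wells (0 to 88.7) and 6.51 in DC0 wells (0 to 80.0), with 4 members at 0 in every well. Over plates 2 to 7 it was 19.4 ± 4.24 in DC2 and 9.0 ± 4.42 in DC0 (SD, n = 6 each), higher in DC2 on 6 of 6 plates. The row for eGFP, a fluorescent protein whose transgene the plate labels do not name, averaged 1.24 in DC2 wells and 1.11 in DC0 wells (log2 difference 0.15).

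The level of a gene on plate 8 is the mean over wells of its UMIs per 10000 UMIs of the well, every well counting equally. The 2 populations share 1 library, wells are not replicates, and no p-value or standard error was made from them; a gene is described as higher or lower at a 2-fold difference in level after adding 0.1 to both means, among the 7103 genes whose levels averaged at least 0.2. By this rule 427 genes (6.01%) were higher and 249 (3.51%) lower in DC2, with a median log2 difference of 0.05 over all genes tested. The balance of the calls moved with the scaling: 63.2% of them were higher in DC2 with UMIs per 10000, against 51.1% (342 higher and 327 lower) with TMM scaling, where the median of all genes was -0.05, and 40.9% (311 higher and 450 lower) when each well was scaled by its spike-in RNA, where it was -0.09. Across plates 1 to 7, edgeR's quasi-likelihood test with plate as a block and Benjamini-Hochberg adjustment called 116 of 2017 genes higher (5.75%) and 103 lower (5.11%) in DC2 at an adjusted p under 0.05. The shares over all genes, on plate 8 and across plates, are the background for the list counts below. Lists were not tested as sets. Within the plates of 1 sequencing run (3, 5, 6 and 7) it called 85 higher and 65 lower, and within plates 1, 2 and 4 it called 12 and 8.

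The genes with the largest differences on plate 8 included ligands and receptors of several pathways on the DC2 side, and dermal fibroblast, elastic matrix and proliferation genes on the DC0 side. The 14 genes furthest up in DC2, in order of fold, were Lrrc15, Inhba, Rab40b, Qpct, Apod, Bmp3, Tspan7, Col11a1, Rspo3, Adamts15, Cxcr4, Hey1, Dll1 and Sobp, with log2 differences of 2.60 to 3.92. The 14 furthest down were Plxna4, Eln, Crabp1, Tuba1c, Lig1, Hmgb2, Pappa2, Tpx2, Irx1, Thbs1, Ccnd1, Ccna2, Twist2 and Gas1, between -2.68 and -1.81. Across plates 1 to 7, edgeR tested 10 of the higher and 12 of the lower genes, and 10 and 7 of these passed in the plate 8 direction. Within plates 3, 5, 6 and 7 alone, 16 of those 17 were tested and 15 passed. Within plates 1, 2 and 4, 14 were tested, 7 passed and 13 had the same direction. With DC2 and DC0 sums alone, only 7 of the 17 were tested, and these 7 passed. Rab40b owed its place to a well: the top DC2 well carried 89.3% of its level, and the log2 difference was 0.75 over wells with at least 3000 UMIs. Tpx2 and Ccna2, genes of mitosis and of the S and G2 phases, had log2 differences of -1.95 and -1.84 over all wells but of -0.31 and -0.61 in the higher-numbered wells of each block, within 2-fold. Tuba1c has close paralogs among the alpha-tubulins, between which the authors' counting may split reads.

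**Figure D1:**
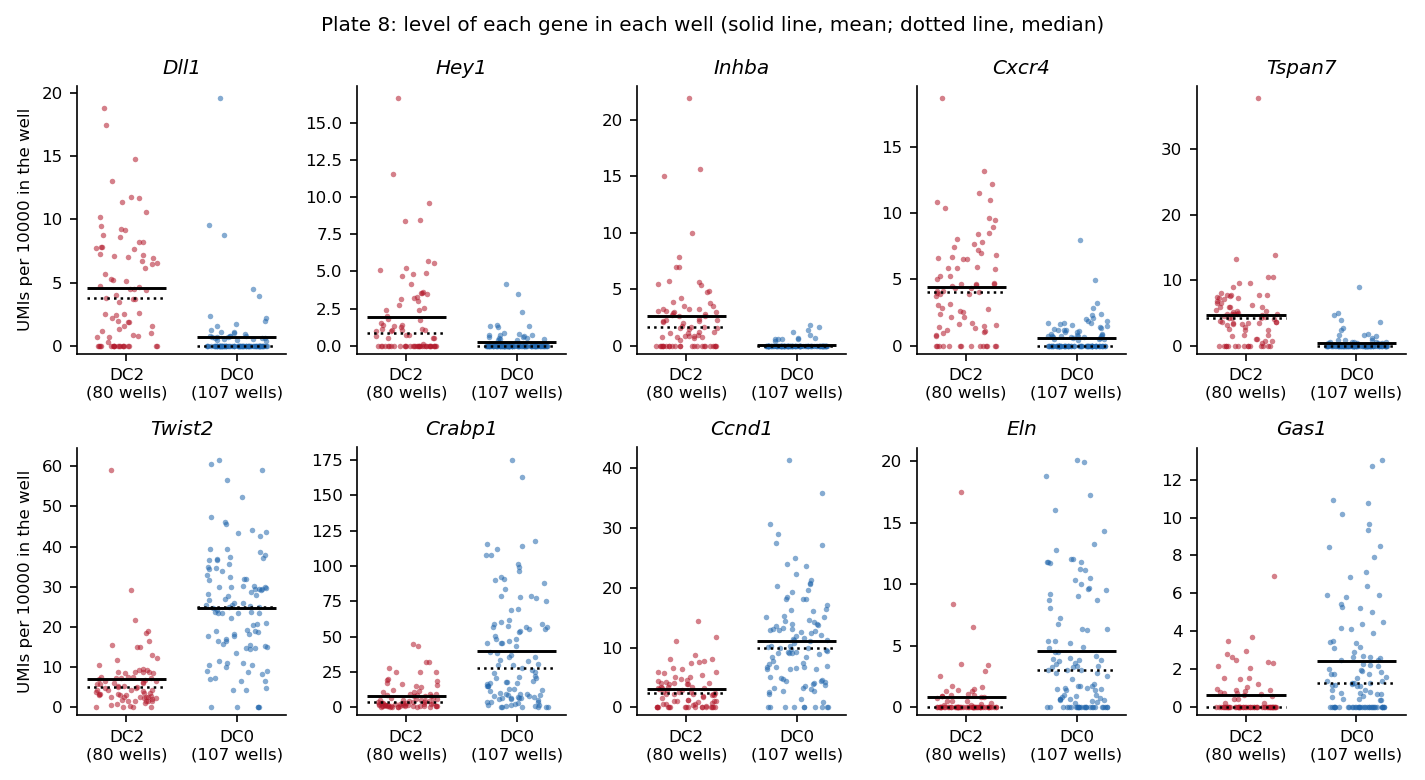
Levels of 10 genes in the single wells of plate 8 (UMIs per 10000 UMIs of the well), DC2 wells on the left of each panel and DC0 wells on the right, a point per well and a bar at the mean. The 5 genes of the top row, Dll1, Hey1, Inhba, Cxcr4 and Tspan7, were at or near 0 in most DC0 wells, and the 5 of the bottom row, Twist2, Crabp1, Ccnd1, Eln and Gas1, lay lower in DC2 wells; every gene has wells of both populations that overlap.

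Of 13 Notch genes at the level minimum, 7 were at least 2-fold higher in DC2 and none lower, with a median log2 difference of 1.21 against 0.05 over all genes; the count was also 7 with TMM and with spike-in scaling. Summed over the list, Notch genes had a median of 22.4 UMIs per 10000 in DC2 wells (0 to 65.5) and 6.36 in DC0 wells (0 to 32.7). In the sums of plates 2 to 7 the same list stood at 20.9 ± 5.08 in DC2 and 7.68 ± 2.23 in DC0 (SD, n = 6 plates each), and the lowest DC2 plate (14.9) lay above the highest DC0 plate (11.6).

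Dll1 (chr17:15367354-15376872, GRCm38, minus strand) encodes the Notch ligand Delta-like 1. It ranged over 0 to 18.9 UMIs per 10000 in DC2 wells, with a median of 3.75, and over 0 to 19.6 in DC0 wells, with a median of 0. The 19.6 was that of a DC0 well with fewer than 3000 UMIs, where few UMIs give such a level. The well values overlapped, but 76.2% of DC2 wells and 28% of DC0 wells held a Dll1 UMI, and after every well was thinned to 3000 UMIs the shares were 64.6% of 65 DC2 wells and 8.51% of 94 DC0 wells. Over plates 2 to 7 its lowest, median and highest levels were 0.427, 2.50 and 3.75 in DC2 sums, and 0, 0 and 0.749 in DC0 sums. DC2 was the higher in 6 of 6 plates although the ranges overlapped, and Dll1 rose in edgeR's test (log2 fold 4.26 ± 0.75, SE, adjusted p = 0.000231). A fitted fold of a gene near 0 in DC0 depends on the prior count of the model and is not a bound.

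Hey1 (chr3:8663359-8667256, minus strand), a transcriptional repressor switched on by Notch, had a median of 0.852 in DC2 wells (0 to 16.6) and 0 in DC0 wells (0 to 4.18). Its plate sums were lowest at 1.62, with a median of 2.57 and a highest of 3.40, in DC2, against 0, 0.363 and 0.50 in DC0. These did not overlap, and edgeR gave a log2 fold of 2.80 ± 0.47 (SE, adjusted p = 0.000122). The related repressor gene Heyl averaged 4.0 in DC2 wells and 0.970 in DC0 wells, and rose across plates (log2 fold 2.33 ± 0.54, edgeR adjusted p = 0.00457). Notch1, the receptor, averaged 1.82 in DC2 wells and 0.308 in DC0 wells and rose as well (2.40 ± 0.49, edgeR adjusted p = 0.00138). In the thinned wells of DC2, Dll1 and Heyl were both detected in 28 of 65 wells, Dll1 alone in 14 and Heyl alone in 15; in DC0 the counts were 2, 6 and 12 of 94.

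Other members did not all follow. Notch3, a receptor also found on pericytes, averaged 1.62 in DC2 wells and 0.631 in DC0 wells and was not tested across plates; it is also on the list of 8 pericyte or smooth muscle markers, of which 3 reached the level minimum, 1 (Notch3) was higher and none lower. That list summed to a median of 2.60 in DC2 wells (0 to 9.86) and 1.88 in DC0 wells (0 to 9.79), with Rgs5 and Kcnj8 at 0 in every well, and over plates 2 to 7 to 3.91 ± 1.72 in DC2 and 2.96 ± 1.45 in DC0 (SD, n = 6 each); its part in the result was not tested. Hes1 averaged 2.13 in DC2 and 0.864 in DC0 but did not pass (log2 fold 0.78 ± 0.47, edgeR adjusted p = 0.316). Notch2 stood at 0.680 in DC2 and 0.928 in DC0, within 2-fold, and Rbpj at 1.2 in DC2 and 0.716 in DC0, also within 2-fold. Hes5, a Notch target best known from neural progenitors, was detected in 28.8% of DC2 wells and 1.87% of DC0 wells, with a log2 difference of 2.28. Its promoter is shown because the letters of the RBPJ site, GTGGGAA or its reverse complement TTCCCAC, occur in it on both strands. These are 250 bases upstream of the RefSeq start, mouse GRCm38.p6, chr4:154960673-154960922, plus strand, with both matches in capitals.
Hes5: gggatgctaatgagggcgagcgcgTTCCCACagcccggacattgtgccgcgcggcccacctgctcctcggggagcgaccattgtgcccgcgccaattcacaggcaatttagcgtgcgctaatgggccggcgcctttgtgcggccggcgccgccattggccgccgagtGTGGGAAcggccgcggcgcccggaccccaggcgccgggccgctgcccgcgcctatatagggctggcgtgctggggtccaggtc
Of the 9 Notch genes tested that have a promoter window, 2 (22.2%) held the motif on either strand, and of all 5393 tested genes with a window 5.92% did. A match of letters is a description of this stretch and not evidence of binding.

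Among activin and TGF-beta genes, 3 of 11 were at least 2-fold higher in DC2 and none lower. Inhba (chr13:16011851-16031621, plus strand) encodes the subunit of activin A. Its median was 1.64 UMIs per 10000 in DC2 wells (0 to 21.9) and 0 in DC0 wells (0 to 1.86), and it was detected in 70.0% of DC2 wells and 11.2% of DC0 wells. Plate sums had a lowest, median and highest level of 1.87, 5.43 and 6.52 in DC2, and 0, 0.265 and 0.366 in DC0. The plate values did not overlap, and edgeR gave a log2 fold of 4.26 ± 0.45 (SE, adjusted p = 6.06e-08). The receptor genes Tgfbr2 and Tgfbr1 were the other 2 members past 2-fold. Tgfbr2 averaged 2.02 in DC2 wells and 0.836 in DC0 wells and rose across plates (log2 fold 1.46 ± 0.38, edgeR adjusted p = 0.0108). Tgfbr1 averaged 1.56 in DC2 and 0.697 in DC0 and lay at the threshold (1.14 ± 0.38, edgeR adjusted p = 0.0495), and its call was lost without plate 1, 3, 4, 5 or 6; on plate 8 it was within 2-fold in 4 of 12 other settings, TMM and spike-in scaling among them.

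The BMP list split by member, with 2 of 16 genes higher and 2 lower, against 6.01% and 3.51% of all genes tested on plate 8. Bmp3, an atypical BMP ligand, averaged 1.99 in DC2 wells and 0.125 in DC0 wells and was detected in 70.0% of DC2 wells and 5.61% of DC0 wells; too low for edgeR's filter, it had plate levels of 0.625 to 2.41 in DC2 and 0 to 0.576 in DC0, which did not overlap. Smoc1, whose product modulates BMP signalling, averaged 6.09 in DC2 and 2.08 in DC0 and rose (log2 fold 1.06 ± 0.31, edgeR adjusted p = 0.0253), a call lost without plate 5 or 6. Fst, the gene of the activin and BMP antagonist follistatin, averaged 0.573 in DC2 and 2.06 in DC0 and fell (-1.97 ± 0.59, edgeR adjusted p = 0.0264), lost without plate 4 or 5. Id2, a BMP-responsive inhibitor of helix-loop-helix factors, averaged 0.460 in DC2 and 1.68 in DC0 but did not pass (edgeR adjusted p = 0.0745). The ligand genes Bmp4 and Bmp7, both condensate markers, stayed within 2-fold: Bmp4 averaged 7.45 in DC2 and 4.74 in DC0, and Bmp7 7.10 in DC2 and 3.99 in DC0, and across plates Bmp4 had the other sign (log2 fold -0.42 ± 0.39, edgeR adjusted p = 0.567).

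WNT agonists and WNT inhibitors were both represented among genes higher in DC2. Of 16 receptors and agonists 4 were higher (Rspo3, Ndp, Rspo1 and Wnt5a) and 1 lower (Wnt4), and of 13 inhibitors 6 were higher (Dkk2, Notum, Frzb, Sfrp2, Dkk3 and Sostdc1) and 2 lower (Dkk1 and Sfrp1). Wnt5a lay at the limit (log2 difference 1.00) and was within 2-fold in 6 of 12 other settings, TMM and spike-in scaling among them. Rspo3 encodes an R-spondin, which stabilises WNT receptors. It had a median of 3.38 in DC2 wells (0 to 18.4) and 0 in DC0 wells (0 to 5.89), and plate sums with a lowest, median and highest of 1.25, 5.16 and 8.44 in DC2 and 0, 1.04 and 1.72 in DC0. The plate ranges overlapped, DC2 was the higher in 6 of 6 plates, and Rspo3 rose (log2 fold 2.25 ± 0.39, edgeR adjusted p = 0.000225).

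Frzb, a secreted WNT-binding inhibitor, averaged 2.60 in DC2 wells and 0.514 in DC0 wells and rose across plates without overlap of their values (log2 fold 3.04 ± 0.57, edgeR adjusted p = 0.000518). Notum, a carboxylesterase that inactivates WNT ligands, averaged 1.21 in DC2 and 0.158 in DC0; it was not tested across plates, where its sums lay between 0.512 and 2.93 in DC2 and between 0 and 0.140 in DC0. Dkk2 averaged 1.96 in DC2 and 0.256 in DC0 with a single DC2 well at 129, and its median was 0 in both populations; its log2 difference of 2.53 was 0.65 at the lowest of 12 other settings and within 2-fold in 4. Fzd2, a WNT receptor, was within 2-fold on plate 8 (3.41 in DC2 and 2.31 in DC0) and rose across plates (1.38 ± 0.24, edgeR adjusted p = 0.000168). Nkd2, an intracellular inhibitor of the pathway, was likewise within 2-fold on plate 8 (0.895 in DC2 and 0.445 in DC0) and rose across plates (2.23 ± 0.47, edgeR adjusted p = 0.00182).

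No Hedgehog gene of 11 was 2-fold higher in DC2 on plate 8 and 3 were lower: Ccnd1, a cyclin gene that responds to the pathway, and the ligand co-receptor genes Gas1 and Boc. Gli1, the usual transcriptional readout of Hedgehog signalling, averaged 3.34 in DC2 wells and 3.19 in DC0 wells, and edgeR gave a log2 fold of 0.15 ± 0.22 across plates (adjusted p = 0.739). Gas1 averaged 0.624 in DC2 and 2.43 in DC0; across plates it fell (-1.32 ± 0.38, edgeR adjusted p = 0.0209), a call lost without plate 3 (log2 fold -0.79), 5 or 7. Boc averaged 0.330 in DC2 and 1.10 in DC0 and did not pass (edgeR adjusted p = 0.712). Across plates 1 of 11 members rose and 2 fell (Ccnd1 and Gas1), against 5.75% and 5.11% of all genes tested there. The member that rose, Glis2, which encodes a GLI-similar zinc finger protein, was within 2-fold on plate 8 (1.92 in DC2 and 1.21 in DC0) and had a log2 fold of 1.05 ± 0.31 across plates (edgeR adjusted p = 0.0253), lost without plate 3 or 7. Of 13 FGF genes 1 was higher (Flrt2) and 1 lower (Spry2) in DC2 on plate 8, against 6.01% and 3.51% of all genes tested. Across plates 1 of 9 FGF genes rose (Fgfr1) and none fell, against the same 5.75% and 5.11%.

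Among retinoic acid genes, Crabp1 (chr9:54764748-54773110, plus strand), which encodes a cytoplasmic retinoic acid-binding protein and marks upper dermal fibroblasts, was lower in DC2. Its wells had a median of 3.74 in DC2 (0 to 44.6) and 27.9 in DC0 (0 to 175). Plate sums had a lowest, median and highest of 1.86, 2.66 and 6.28 in DC2 and 2.93, 42.1 and 68.8 in DC0. DC2 was the lower in 6 of 6 plates with some overlap, and Crabp1 fell (log2 fold -3.52 ± 0.45, edgeR adjusted p = 2.46e-06). Cyp26b1, which degrades retinoic acid, was within 2-fold on plate 8 (4.39 in DC2 and 6.85 in DC0) and fell across plates without overlap (-1.67 ± 0.27, edgeR adjusted p = 0.000109). The 7 upper dermal fibroblast markers, Crabp1 among them, summed to an average of 20 in DC2 wells and 54.8 in DC0 wells, and of the 6 at the level minimum 1 was higher (Sostdc1) and 1 lower (Crabp1). Dhrs3, a retinal reductase gene, averaged 1.41 in DC2 and 0.489 in DC0 and was not tested across plates.

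Of 34 transcription factor genes of condensate and dermis, 11 were 2-fold higher in DC2 and 2 lower on plate 8, and across plates 3 of 27 rose and 2 fell. The shares over all genes tested were 6.01% higher and 3.51% lower on plate 8, and 5.75% and 5.11% across plates. Twist2 (chr1:91801461-91848028, plus strand), a factor of dermal fibroblasts, had a median of 5.05 in DC2 wells (0 to 59.2) and 24.8 in DC0 wells (0 to 61.6). Over plates 2 to 7 its lowest, median and highest levels were 2.09, 3.65 and 6.06 in DC2 sums and 11.9, 20.7 and 38.2 in DC0 sums. These did not overlap, and Twist2 fell (log2 fold -2.56 ± 0.22, edgeR adjusted p = 3.11e-09). Sox18, a factor of condensates and of vessels, averaged 8.99 in DC2 wells and 2.78 in DC0 wells and rose (1.61 ± 0.43, edgeR adjusted p = 0.0133), a call lost without plate 3 or 4. The 8 endothelial markers summed to 0.711 ± 0.649 in DC2 and 0.237 ± 0.370 in DC0 over plates 2 to 7 (SD, n = 6 each), DC2 being higher in 5 of 6, and on plate 8 they averaged 0.0360 in DC2 wells (0 to 1.03) and 0.0426 in DC0 wells (0 to 2.13), with Cdh5, Cldn5, Esam and Tie1 at 0 in every well; their part in the result was not tested. Sox9 averaged 4.34 in DC2 and 1.48 in DC0 and rose (2.25 ± 0.50, edgeR adjusted p = 0.00306), lost without plate 5. Ebf1 averaged 1.33 in DC2 and 0.292 in DC0 and rose (1.88 ± 0.45, edgeR adjusted p = 0.00534).

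Several factors differed on plate 8 alone or across plates alone, with no test of that contrast. Sox2, a condensate marker, averaged 2.52 in DC2 wells and 1.11 in DC0 wells, within 2-fold in 3 of 12 other settings, spike-in scaling among them, and did not pass across plates (log2 fold 0.27 ± 0.60, edgeR adjusted p = 0.845). Prdm1, another condensate marker, averaged 4.55 in DC2 and 1.91 in DC0 and did not pass either (0.79 ± 0.36, edgeR adjusted p = 0.171). Sox4 averaged 1.93 in DC2 and 0.733 in DC0, while its fitted log2 fold across plates was -0.29 ± 0.32 (edgeR adjusted p = 0.648). Tbx18, also a condensate marker, went the other way, with 1.56 in DC2 and 2.30 in DC0 on plate 8, within 2-fold, and a fall across plates (-2.22 ± 0.36, edgeR adjusted p = 9.83e-05). Alx4 averaged 1.32 in DC2 and 0.174 in DC0 and was not tested across plates.

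**Figure D2:**
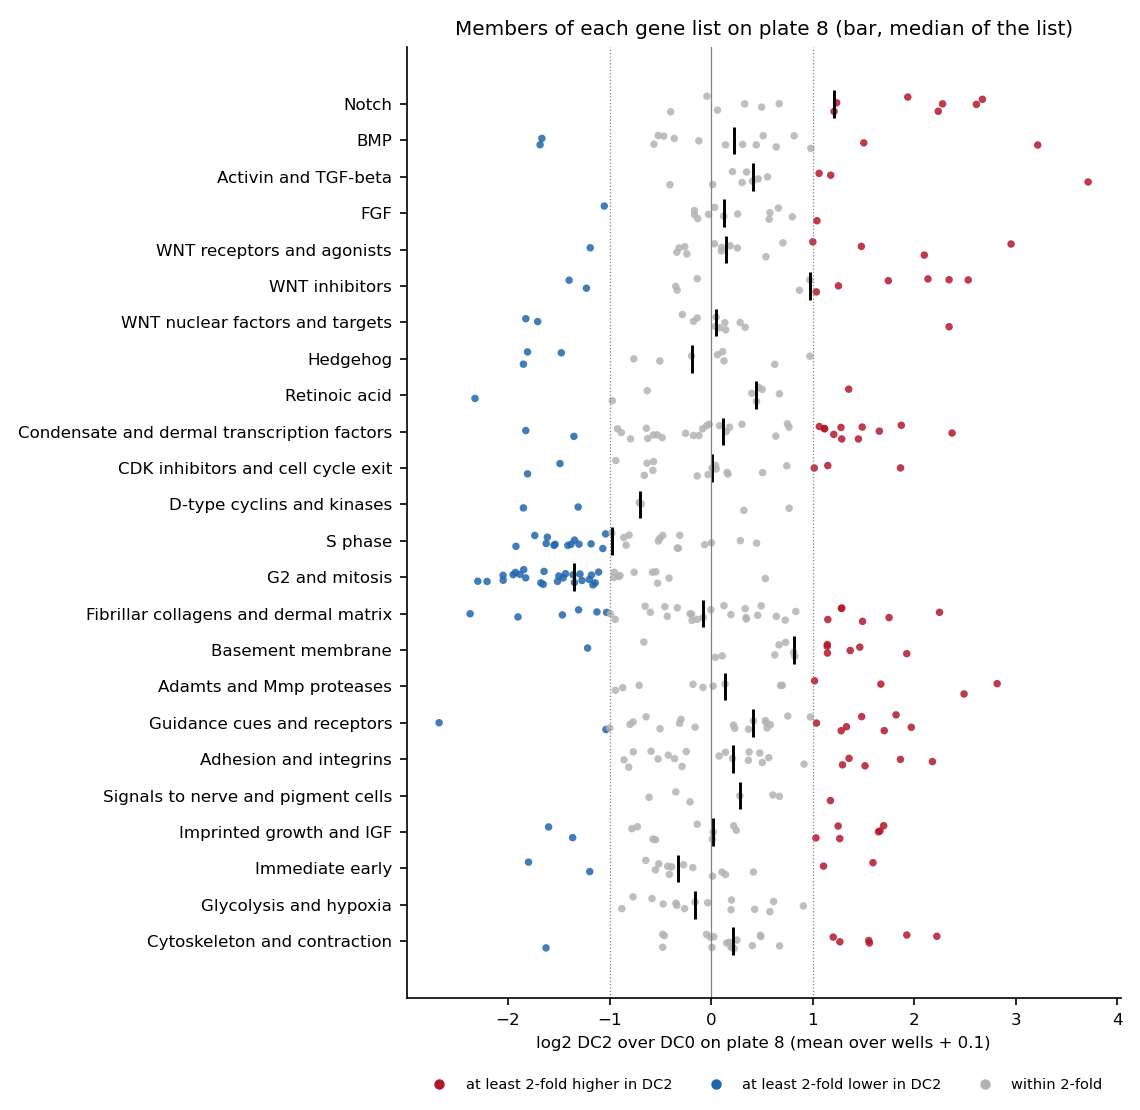
Log2 difference of DC2 over DC0 on plate 8 (horizontal axis) for every member of 24 of the gene lists that reached the level minimum, a point per gene, red at least 2-fold higher in DC2, blue at least 2-fold lower, grey within 2-fold, with a bar at the median of each list. S phase genes and G2 and mitosis genes lie mostly below 0, with medians of -0.98 and -1.35, and Notch genes have a median of 1.21.

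Genes of proliferating cells were lower in DC2 on plate 8. Of 27 S phase genes 13 were at least 2-fold lower and none higher (median log2 difference -0.98), and of 35 genes of G2 and mitosis 25 were lower and none higher (median -1.35). Their sums were carried by a subset of wells: the summed G2 and mitosis level had a median of 7.72 in DC2 wells (2.92 to 194) and 9.18 in DC0 wells (0 to 248), while the means were 15 in DC2 and 40.6 in DC0. After thinning to 3000 UMIs, 15.4% of DC2 wells and 34.0% of DC0 wells held at least 5 UMIs of that list, and 13 of 65 DC2 wells and 50 of 94 DC0 wells (53.2%) held at least 5 of the S phase list. The split by plate position moved these counts: in the lower-numbered wells of each block 23 S phase and 35 G2 and mitosis genes were lower, and in the higher-numbered wells 10 and 9.

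Across plates 1 to 7, 5 of 11 S phase genes fell and none rose, and 0 of 17 G2 and mitosis genes passed edgeR's test in either direction, with 2 at an unadjusted p under 0.05; DESeq2 also passed 0, with 3 at that unadjusted p. Pcna, the sliding clamp of DNA polymerases, averaged 1.34 in DC2 wells and 3.56 in DC0 wells and fell (log2 fold -1.68 ± 0.41, edgeR adjusted p = 0.00695), lost without plate 5. Mcm4 and Mcm5 are subunits of the helicase that opens replication origins. Mcm4 averaged 0.347 in DC2 and 1.21 in DC0 and fell (-2.08 ± 0.60, edgeR adjusted p = 0.0231); Mcm5 averaged 0.471 in DC2 and 0.900 in DC0, within 2-fold, and fell (-2.12 ± 0.57, edgeR adjusted p = 0.0140); both calls were lost without plate 7. The call of Rrm1, another of the 5, was also lost without plate 7 (edgeR adjusted p = 0.0537). Mcm3 averaged 0.116 in DC2 and 0.718 in DC0 and was too low for the test, with plate levels of 0 to 0.419 in DC2 and 0.483 to 2.62 in DC0. Summed over the list, S phase genes were higher in DC2 on 2 of 6 plates. The S phase sum ranged from 10.5 to 18.5 UMIs per 10000 over the DC2 plates and from 10.2 to 74.4 over the DC0 plates, and the highest DC0 value was that of plate 7. On that plate 1 of 2 DC0 wells held 60704 of the 64925 DC0 UMIs. The G2 and mitosis sum ranged from 8.80 to 81.7 over DC2 plates and from 7.49 to 98.4 over DC0 plates.

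Among single cell cycle genes, Ccnd1 (chr7:144929931-144939925, minus strand), which encodes the G1 cyclin D1, had a median of 2.31 in DC2 wells (0 to 14.4) and 9.96 in DC0 wells (0 to 41.4). Its plate sums had a lowest, median and highest of 0.931, 2.03 and 6.28 in DC2 and 4.16, 13.4 and 32.8 in DC0. The ranges overlapped, DC2 was the lower in 6 of 6 plates, and Ccnd1 fell (log2 fold -2.0 ± 0.28, edgeR adjusted p = 1.29e-05). Hmgb2, a chromatin protein gene highest in dividing cells, averaged 0.942 in DC2 wells and 4.21 in DC0 wells and did not pass across plates (-1.25 ± 0.53, edgeR adjusted p = 0.131). Top2a, the topoisomerase of chromosome condensation, averaged 1.04 in DC2 and 2.98 in DC0 and did not pass (-1.10 ± 0.73, edgeR adjusted p = 0.371). Ccnb1, the mitotic cyclin B1 gene, averaged 0.380 in DC2 and 1.43 in DC0 on plate 8, and its fitted log2 fold across plates was 0.23 ± 0.83 (edgeR adjusted p = 0.914).

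Inhibitors of the cell cycle were not higher as a group. On plate 8, 3 of 19 such genes were higher in DC2 (Rb1, Tob2 and Ccng1) and 2 lower (Gas1 and Cdkn2d), and across plates 4 of 8 fell and none rose. Cdkn1c, the gene of the CDK inhibitor p57, averaged 15.8 in DC2 wells and 17.4 in DC0 wells on plate 8, with medians of 4.76 in DC2 and 6.15 in DC0. In the sums of plates 2 to 7 it had a lowest, median and highest of 3.12, 5.25 and 14.3 in DC2 and 9.24, 56.6 and 62.6 in DC0, DC2 being lower in 5 of 6 plates, and it fell (log2 fold -2.57 ± 0.53, edgeR adjusted p = 0.00163). Cdkn1a, the gene of p21, averaged 4.19 in DC2 and 6.67 in DC0 and fell across plates (-1.53 ± 0.49, edgeR adjusted p = 0.0418), lost without plate 2, 3, 4, 5 or 6. Rb1, the retinoblastoma gene, averaged 1.16 in DC2 and 0.246 in DC0 and was not tested across plates, where its levels did not overlap (0.931 to 1.53 in DC2 and 0 to 0.679 in DC0).

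The promoters of 4 of these proliferation genes are printed because their lists were lower in DC2 and promoters of such genes are known for cell cycle motifs. The motif of the E2F factors of the G1 to S transition was searched as TTTGGCGC, TTTCCCGC, TTTGCCGC or TTTCGCGC, and those of G2 and mitosis genes as the CHR element TTTGAA and as CCAAT, on both strands; matches may overlap. Of S phase genes tested with a window, 5 of 21 (23.8%) held an E2F match, against 4.49% of all 5393 genes. Of G2 and mitosis genes, 14 of 31 (45.2%) held CHR, against 12% of all genes, and 26 of 31 (83.9%) held CCAAT, against 41.2%. Each stretch is the 250 bases upstream of the RefSeq start in mouse GRCm38.p6, 5′ to 3′ on the gene's strand, with matches in capitals: Mcm7 at chr5:138171884-138172133 (minus) and Mcm5 at chr8:75109259-75109508 (plus, with overlapping matches) for E2F, and Hmgb2 at chr8:57511593-57511842 (plus) and Top2a at chr11:99024190-99024439 (minus) for CHR and CCAAT.
Mcm7: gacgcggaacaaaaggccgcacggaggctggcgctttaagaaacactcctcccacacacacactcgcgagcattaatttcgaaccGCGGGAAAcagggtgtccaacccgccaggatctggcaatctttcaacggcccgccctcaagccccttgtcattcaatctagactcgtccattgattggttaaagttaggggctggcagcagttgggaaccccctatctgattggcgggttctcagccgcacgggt
Mcm5: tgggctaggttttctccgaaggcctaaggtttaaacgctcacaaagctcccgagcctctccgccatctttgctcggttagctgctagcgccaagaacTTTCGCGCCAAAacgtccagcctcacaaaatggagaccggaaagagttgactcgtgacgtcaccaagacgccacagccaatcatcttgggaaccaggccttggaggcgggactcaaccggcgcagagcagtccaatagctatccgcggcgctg
Hmgb2: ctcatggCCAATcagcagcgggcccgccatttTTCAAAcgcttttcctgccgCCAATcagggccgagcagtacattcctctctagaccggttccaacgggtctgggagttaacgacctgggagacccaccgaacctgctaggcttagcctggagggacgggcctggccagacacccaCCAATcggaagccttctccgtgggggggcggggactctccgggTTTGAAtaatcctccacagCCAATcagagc
Top2a: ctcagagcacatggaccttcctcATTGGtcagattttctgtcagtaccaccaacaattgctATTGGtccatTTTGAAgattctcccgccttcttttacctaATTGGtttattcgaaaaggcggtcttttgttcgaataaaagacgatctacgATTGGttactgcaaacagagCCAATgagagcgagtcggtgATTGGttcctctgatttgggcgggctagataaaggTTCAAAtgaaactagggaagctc
Mcm7, another helicase subunit, averaged 0.697 in DC2 wells and 1.86 in DC0 wells and did not pass across plates (log2 fold -0.95 ± 0.42, edgeR adjusted p = 0.149).

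Matrix genes split by member. Of 35 genes of fibrillar collagens and dermal matrix 6 were higher and 6 lower in DC2 (median log2 difference -0.08), and across plates 7 of 34 rose and 4 fell. Eln (chr5:134702593-134747323, minus strand), which encodes elastin, had a median of 0 in DC2 wells (0 to 17.5) and 2.99 in DC0 wells (0 to 20.1). Its plate sums ranged from 0 to 0.659 in DC2, with a median of 0.110, and from 0.462 to 6.91 in DC0, with a median of 2.15. The ranges overlapped slightly, DC2 was the lower in 6 of 6 plates, and Eln fell (log2 fold -3.28 ± 0.64, edgeR adjusted p = 0.000874). Lum, the gene of the collagen-binding proteoglycan lumican, averaged 2.45 in DC2 wells and 6.94 in DC0 wells and fell without overlap (-1.76 ± 0.28, edgeR adjusted p = 9.47e-05). Fbln2, a fibulin gene of elastic fibres and basement membranes, averaged 12.5 in DC2 and 4.38 in DC0 and rose without overlap (1.75 ± 0.18, edgeR adjusted p = 4.71e-08). Vcan, the gene of versican, a proteoglycan known in hair follicle mesenchyme, averaged 2.94 in DC2 and 1.15 in DC0 and rose (1.5 ± 0.32, edgeR adjusted p = 0.00225).

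Basement membrane genes were more often higher: 6 of 15 were past 2-fold on plate 8 and 1 was lower (median log2 difference 0.81), and across plates 4 of 13 rose and 1 fell. Nid1, the gene of nidogen, which links laminin to collagen IV, averaged 13.3 in DC2 wells and 5.08 in DC0 wells and rose without overlap (log2 fold 1.45 ± 0.24, edgeR adjusted p = 9.83e-05). Lama2, a laminin subunit gene, averaged 5.45 in DC2 and 1.91 in DC0 and rose (1.27 ± 0.26, edgeR adjusted p = 0.00149). Agrn, the gene of the heparan sulfate proteoglycan agrin, averaged 2.86 in DC2 and 1.24 in DC0 and rose (1.92 ± 0.33, edgeR adjusted p = 0.000210). Egfl6, a secreted matrix protein gene, averaged 3.47 in DC2 and 8.19 in DC0 and fell (-1.10 ± 0.29, edgeR adjusted p = 0.0106), lost without plate 4 or 5.

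Of 13 genes of Adamts and Mmp proteases 4 were higher in DC2 and none lower. Adamts20, a protease gene known from the spread of pigment cells in mouse skin, averaged 8.13 in DC2 wells and 1.36 in DC0 wells and rose without overlap (log2 fold 2.44 ± 0.32, edgeR adjusted p = 3.01e-06). Adamts15, an aggrecan- and versican-cleaving protease gene, averaged 3.02 in DC2 and 0.343 in DC0 and rose without overlap (6.44 ± 0.66, edgeR adjusted p = 4.7e-08), with plate levels of 2.85 to 4.71 in DC2 and 0 to 0.154 in DC0. The DC0 sums of plates 1 to 7 held 2 Adamts15 UMIs in all, for a ratio of levels of 87.7 (exact counting interval 23.9 to 731).

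Surface receptors of migration and guidance were among the genes higher in DC2. Cxcr4 (chr1:128588199-128592293, minus strand), the receptor of the chemokine CXCL12 and a condensate marker, had a median of 4.08 in DC2 wells (0 to 18.6) and 0 in DC0 wells (0 to 7.95). Its plate sums had a lowest, median and highest of 2.65, 3.21 and 8.38 in DC2 and 0, 0 and 0.25 in DC0. They did not overlap, and Cxcr4 rose (log2 fold 5.40 ± 0.65, edgeR adjusted p = 9.37e-07). In the thinned wells Cxcr4 and Twist2 were detected together in 31 of 65 DC2 wells and 12 of 94 DC0 wells, and Twist2 without Cxcr4 in 16 DC2 and 81 DC0 wells. Tspan7 (chrX:10485158-10596605, plus strand), a tetraspanin gene, had a median of 4.24 in DC2 wells (0 to 37.8) and 0 in DC0 wells (0 to 8.92). Its plate sums ran from 3.75 to 8.38 in DC2, with a median of 5.62, and from 0 to 0.281 in DC0, with a median of 0.077. These too stood apart, and edgeR gave 5.44 ± 0.50 (adjusted p = 7.16e-09).

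Of 27 guidance genes 7 were higher and 2 lower in DC2 on plate 8, and across plates 1 of 10 rose (Nrp2) and 1 fell (Sema6d). Over all genes tested the shares were 6.01% and 3.51% on plate 8, and 5.75% and 5.11% across plates. Nrp2, a co-receptor of semaphorins and VEGF, averaged 9.28 in DC2 wells and 2.55 in DC0 wells and rose without overlap (log2 fold 1.70 ± 0.27, edgeR adjusted p = 6.99e-05). Unc5b, a netrin receptor gene, averaged 2.33 in DC2 and 0.519 in DC0; it was not tested across plates, where its levels were 1.25 to 4.4 in DC2 and 0 to 0.999 in DC0. Plxna4, a semaphorin receptor gene, averaged 0.0744 in DC2 and 1.02 in DC0, was detected in 11.2% of DC2 wells and 46.7% of DC0 wells, and was not tested across plates. Of 23 adhesion genes 5 were higher and none lower on plate 8, among them Cdh2, the gene of N-cadherin, at 1.05 in DC2 and 0.154 in DC0; of 9 tested across plates 0 passed in edgeR, with 2 at an unadjusted p under 0.05, and 0 in DESeq2, with 1.

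Lrrc15 (chr16:30269302-30283256, minus strand), which encodes a leucine-rich repeat membrane protein, had the largest log2 difference of the named genes (3.92). Its median was 0.210 in DC2 wells (0 to 15.7) and 0 in DC0 wells (0 to 2.77), and it was detected in 51.2% of DC2 wells and 9.35% of DC0 wells. Its plate sums had a lowest, median and highest of 1.13, 4.54 and 6.07 in DC2 and 0, 0 and 0.0523 in DC0. They did not overlap, and Lrrc15 rose (log2 fold 6.88 ± 0.87, edgeR adjusted p = 1.67e-06; 11.67 without plate 5). The DC0 sums of plates 1 to 7 held 1 Lrrc15 UMI in all, on plate 5, and the DC2 sums 120, a ratio of levels of 138 with an exact counting interval of 24.2 to 5481. Although every DC2 sum held Lrrc15, the middle DC2 well of plate 8 held little of it.

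Imprinted and IGF genes had 6 of 17 members higher and 2 lower in DC2 on plate 8, and 4 of 16 rose and 1 fell (Cdkn1c) across plates. Igfbp4, an IGF-binding protein gene, averaged 23.2 in DC2 wells and 7.25 in DC0 wells and rose without overlap (log2 fold 1.65 ± 0.21, edgeR adjusted p = 1.67e-06). Meg3, an imprinted long noncoding RNA, averaged 16.4 in DC2 and 5.16 in DC0 and rose (1.58 ± 0.25, edgeR adjusted p = 6.18e-05). Dlk1, its imprinted neighbour, which encodes a membrane protein of the Delta family, averaged 27.1 in DC2 and 11.2 in DC0 and rose (1.06 ± 0.27, edgeR adjusted p = 0.00911). Igf2, the growth factor gene, averaged 1.52 in DC2 and 4.81 in DC0 and did not pass (-0.47 ± 0.22, edgeR adjusted p = 0.175). Of 25 cytoskeleton genes 6 were higher and 1 lower, and across plates 3 of 21 rose and none fell. Of 15 glycolysis and hypoxia genes none was past 2-fold on plate 8, and across plates 2 of 10 fell and none rose. These were the glycolytic enzyme genes Ldha, at 2.59 in DC2 wells and 4.48 in DC0 wells (log2 fold across plates -0.92 ± 0.28, edgeR adjusted p = 0.0295), and Pgk1, at 2.23 in DC2 and 3.13 in DC0 (-0.86 ± 0.25, edgeR adjusted p = 0.0234). The Ldha call was lost without plate 3, 5 or 7 and the Pgk1 call without plate 4, 5 or 7. Pdlim3, which encodes an actin-associated protein, averaged 1.87 in DC2 and 0.322 in DC0 and rose (4.05 ± 0.68, edgeR adjusted p = 0.000137).

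The direction of all 28 named genes on plate 8 held in the sums over plates 1 to 7. Of the genes tested on plate 8, 56.1% were higher and 43.7% lower in DC2 in those sums. Of the 28, 26 were past 2-fold the same way, against 7.64% of all 7103 genes past 2-fold higher and 4.15% past 2-fold lower. In 25 the DC1 sum lay between the DC2 and the DC0 sum. That share was not computed over all genes, and a wide gap between DC2 and DC0 leaves more room for a value between. In 10 of 28 the plate values of DC2 and DC0 did not overlap, 9 of them higher and 1 lower in DC2, against 0.943% and 0.225% of all 7103 genes. Within plates 3, 5, 6 and 7 all 28 kept the direction and within plates 1, 2 and 4, 25 did. Taking all 427 genes higher on plate 8, 386 (90.4%) were higher in the sums, 226 of them past 2-fold; of the 249 lower, 213 (85.5%) were lower and 94 past 2-fold.

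**Figure D3:**
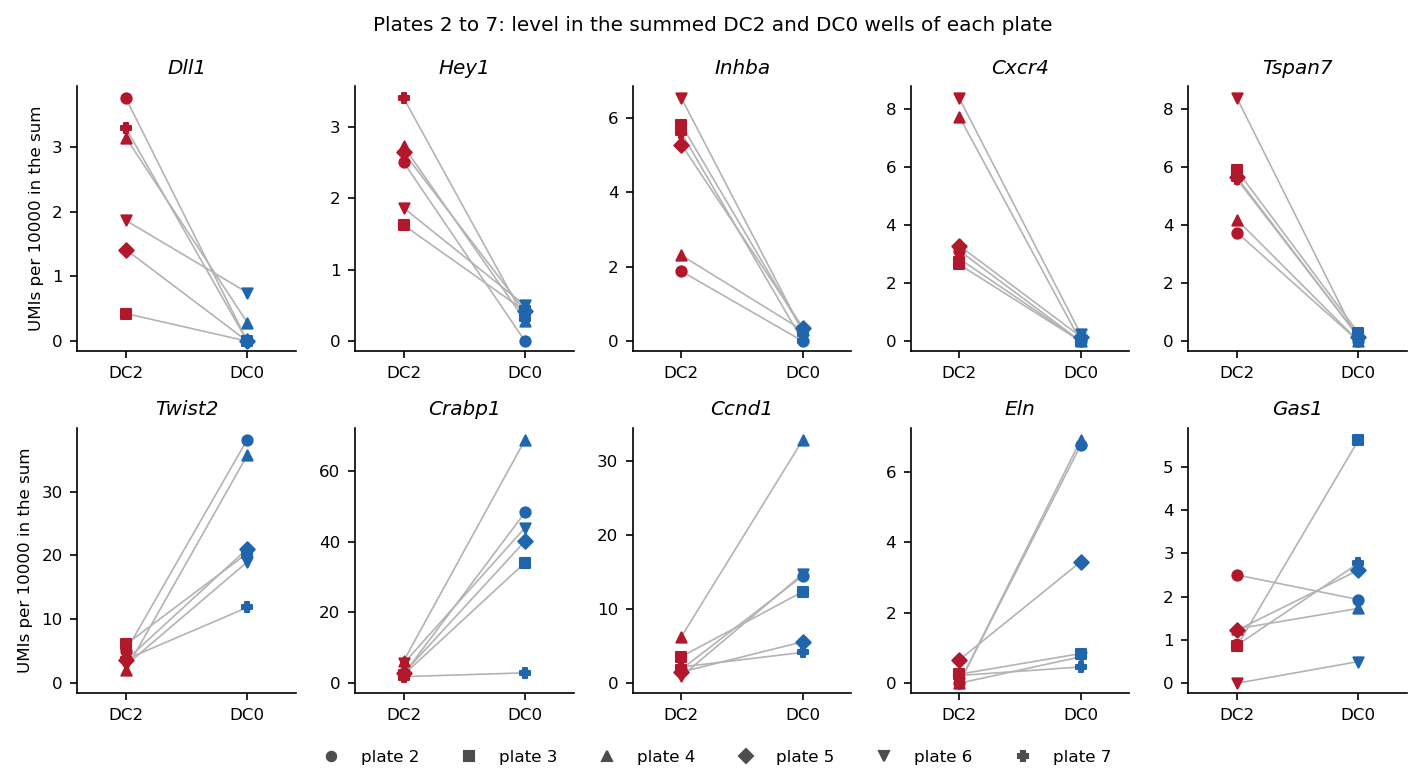
Levels of the same 10 genes in the sums of plates 2 to 7 (UMIs per 10000 UMIs of the sum), DC2 on the left and DC0 on the right of each panel, a line joining the 2 sums of a plate. Hey1, Inhba, Cxcr4 and Tspan7 stand higher in every DC2 sum than in any DC0 sum, and Twist2 lower in every one; Dll1, Crabp1, Ccnd1, Eln and Gas1 overlap, and Gas1 is higher in DC2 on 1 plate.

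Read the other way, 115 of the 116 genes that rose across plates 1 to 7 had a log2 difference above 0 on plate 8, 63 of them past 2-fold, and 102 of the 103 that fell had one below 0, 27 past 2-fold. No gene called across plates was past 2-fold in the opposite direction on plate 8.

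**Figure D4:**
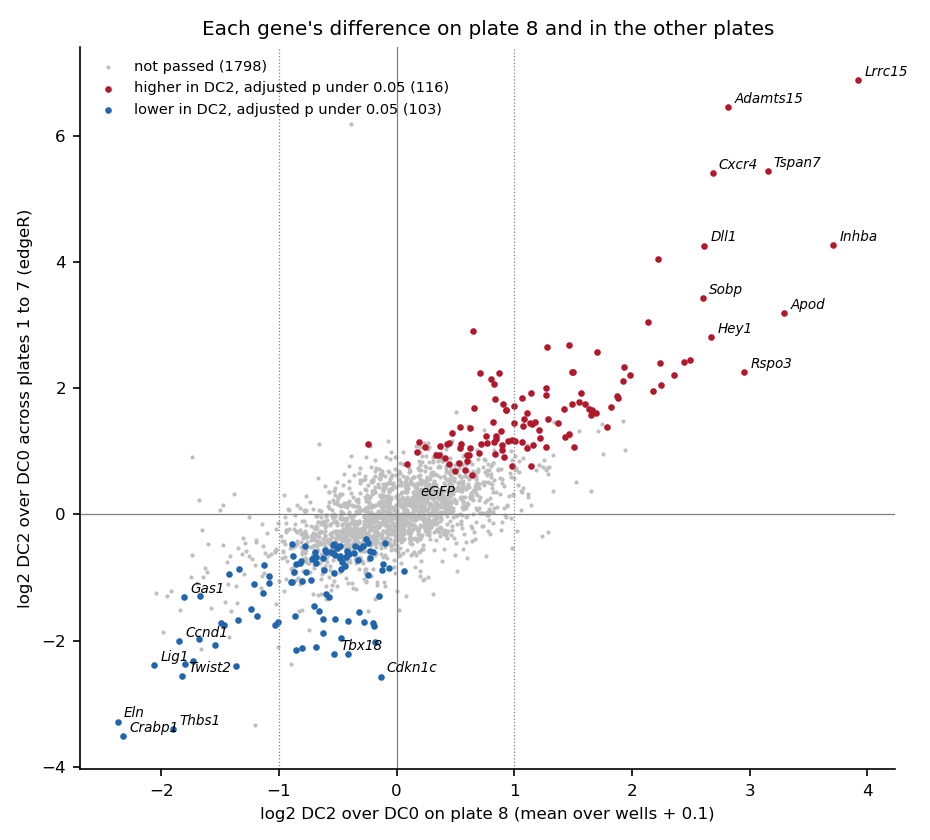
Log2 difference of DC2 over DC0 on plate 8 (horizontal axis) against edgeR's log2 fold across plates 1 to 7 (vertical axis) for the 2017 genes tested there, a point per gene, coloured where edgeR called it. Of the 116 genes called higher 115 lie above 0 on plate 8 and of the 103 called lower 102 lie below 0.

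The wells of plate 8 were also read by genes chosen on the other plates alone. For each thinned well, the UMIs of the 98 genes that rose by at least 2-fold across plates 1 to 7 were expressed as a percentage of the UMIs of these and of the 49 that fell by at least 2-fold. The median was 83.8% in DC2 wells (46.6 to 95%) and 33.0% in DC0 wells (17.6 to 73.3%). Above 50% lay 64 of 65 DC2 wells and 12 of 94 DC0 wells, and 10 DC2 and 19 DC0 wells fell in the range of the other population. The named genes gave a like picture by detection, as a description, since plate 8 chose them: of the 14 higher genes a DC2 well held a median of 7 (1 to 11) and a DC0 well a median of 1 (0 to 3).

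**Figure D5:**
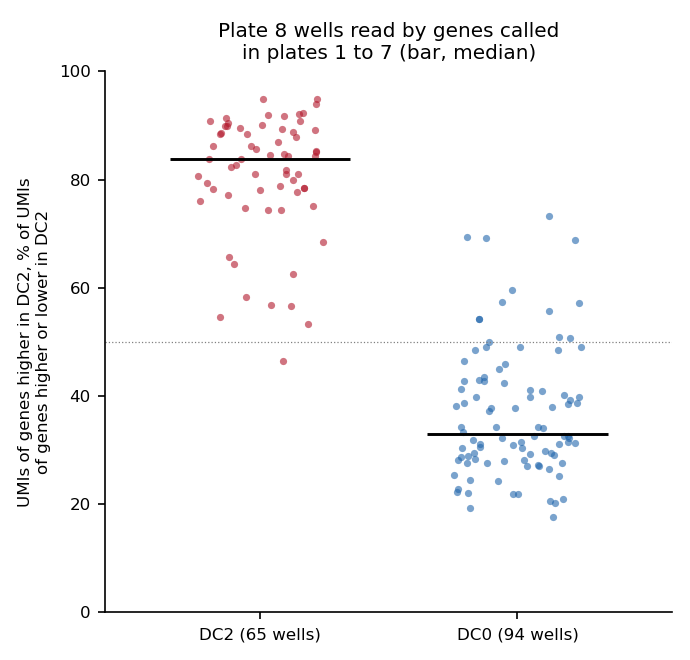
Share of UMIs from genes higher in DC2 among UMIs of genes higher or lower in DC2 (percent, genes called across plates 1 to 7), per thinned well of plate 8, DC2 wells on the left and DC0 wells on the right, with a bar at the median and a dotted line at 50%. DC2 wells centre at 83.8% and DC0 wells at 33.0%, with a tail of 12 DC0 wells above 50%.

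The 42 DC2 wells left out for depth held 22013 UMIs and the 17 DC0 wells left out held 10674, and of the 28 named genes 10 had the same direction there as in the kept wells, 14 the opposite and 4 no difference or no UMI. Twist2 had 32 UMIs (14.5 per 10000) in the DC2 wells and 12 (11.2) in the DC0 wells left out, opposite to the kept wells, and Crabp1 had 38 (17.3) in DC2 and 23 (21.5) in DC0. The left-out wells held a median of 516 gene UMIs in DC2 (164 to 952) and 656 in DC0 (34 to 981). The 16 wells of plate 8 named for spike-ins held a median of 199 (107 to 704), which overlaps these. The part of such background in the directions of the left-out wells was not tested. The amount of RNA did not differ detectably: over plates 2 to 7 the log2 ratio of DC2 to DC0 in median UMIs per well averaged -0.52 (SD 0.986), with DC2 lower in 5 of 6 plates (exact two-sided sign-flip permutation p = 0.281, the smallest possible being 0.0312). Per spike-in UMI the ratio averaged -0.50 (SD 0.478), also with DC2 lower in 5 of 6 plates (exact two-sided permutation p = 0.0625). On plate 8 the medians were 64.9 gene UMIs per spike-in UMI in DC2 wells and 73.0 in DC0 wells.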

How the data were processed

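Per the labels' protocols, single live cells were sorted into wells and made into libraries by SORT-seq. The submitters' processing notes name the build mm10 and, without saying what each did, BWA 0.6.2-r126, Cufflinks 2.1.1, TopHat2 2.0.3 and Bowtie2. The authors deposited expected counts: UMIs per gene and well, corrected for barcode collisions in a space of 4096 (0 of 7480233 values above 0 missed that formula by more than 0.005). They were rounded to whole UMIs, which changed 13.5% of the values above 0. The table held 20284 genes and 86 spike-ins.

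Plate 8 was described with no test, by means over wells, by detection shares at each well's depth and after thinning to 3000 UMIs (15 DC2 and 13 DC0 wells were too shallow), and by exact 95% intervals, which cover counting error only. Sums of at least 2 wells of DC0, DC1, DC2 and Fb (fibroblast) from plates 1 to 7 were fitted with edgeR 4.0.16 (R 4.3.3, limma 3.58.1; TMM, filterByExpr, plate as a block). In simulated sums of the same size edgeR recovered 11% of 2-fold and 70% of 4-fold changes, with 4 false calls among 2125 genes. The simulation gave every gene and population a dispersion of 0.2 and no plate effect. That spread was not estimated from these data, so the figures are not error rates of the real comparison. DC2 and DC0 sums of a number come from the same plate; the correlations of their deviations ran from -0.026 to 0.318. The SE beside an edgeR log2 fold is the absolute log2 fold divided by the square root of the test's F statistic. It was not taken from the fit and is approximate, also where DC0 held few UMIs. DESeq2 1.42.0 was an alternative.

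Named genes were the 14 largest rises and 14 largest falls on plate 8 with an average level of at least 0.5 and thinned shares moving the same way, leaving out predicted, mitochondrial, ribosomal protein and erythroid genes; list genes were named from those past 2-fold and those that define a list. The members and lists were chosen with earlier results of these data known. Promoters are from RefSeq, GRCm38.p6 (5393 of 7103 genes tested had one), and gene positions from GENCODE M21 (28 of 28 named genes matched).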

Additional observations from a re-analysis of the deposited data

Results flagged for a closer look

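Plate 7 stood apart from the other 5 plates in 3 of the 31 values examined for a sample far from the rest (Dixon's limit 0.625 for 6 plates, which chance passes in about 1 of 20 groups). These were log2 differences between DC2 and DC0 per plate. For Rspo3 plate 7 gave 6.42 and the other plates 0.34 to 2.57. For Crabp1 plate 7 gave -0.62 and the others -4.22 to -2.95. For Adamts15 plate 7 gave 3.54 and the others 4.98 to 5.57. The DC0 sums of plates 1 to 7 held 2 Adamts15 UMIs in all, so this gap also rests on few UMIs. In the labels, the description of plate 7 gives a run name that differs from its title, and the title was used to assign its wells. Plate 7 carried 4 DC2 wells and 2 DC0 wells, and 1 of these DC0 wells held 60704 of their 64925 UMIs. That DC0 sum, mostly a single well, was also the highest for S phase genes (74.4 UMIs per 10000) and for G2 and mitosis genes (98.4). The calls of Rspo3, Crabp1 and Adamts15 across plates held without plate 7.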

How the results depend on the processing

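On plate 8 the numbers of genes at least 2-fold higher and lower in DC2, 427 and 249, became 611 and 384 with a pseudocount of 0.02, 116 and 54 with 0.5, 207 and 107 at an average level of at least 0.5, 780 and 447 with no filter, 718 and 499 with thinned wells, 311 and 450 with spike-in scaling, 601 and 487 in the lower-numbered wells of each block and 759 and 395 in the higher-numbered. Across plates 1 to 7 the 116 higher and 103 lower calls became 199 and 122 with no filter, 52 and 30 with DC2 and DC0 sums alone, 177 and 204 with plate 8 added, 85 and 65 within plates 3, 5, 6 and 7, 12 and 8 within plates 1, 2 and 4, and 16 and 4 with thinned wells. Leaving out each plate gave 72 to 130 higher and 44 to 116 lower calls: 75 and 49 without plate 3, 72 and 44 without plate 5, and 67 lower without plate 7. Without the replicate block the counts were 125 and 86, and DESeq2 gave 132 and 111. Signs turned for Sox4 (0.12) and Ccnb1 (-0.84) with plate 8 added; for Gas1 (0.22), Irx1 (0.23), eGFP (-0.37), Id2 (0.20) and Ldha (0.22) within plates 1, 2 and 4; for eGFP (-0.22) and Bmp7 (-0.18) with sums of at least 3 wells; and for Top2a (-2.72 to 0.20) and Mki67 (-3.10 to 0.11) as plates were left out, above 0 without plate 7. The cause was not tested. Fewer wells enter the position, thinned and single-run settings by construction. Of the values of single genes recomputed across plates, 11 turned sign, 134 lost and 22 gained a call, and 1369 kept their direction and side of the threshold.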

Other observations

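Ribosomal protein genes, a group chosen after their values were seen, were lower in DC2 on plate 8: all 71 tested across plates 1 to 7 had a log2 difference below 0 on plate 8, with a median of -0.52 and 1 past 2-fold, and 30 of the 71 fell across plates 1 to 7 and none rose. Their summed level had a median of 948 UMIs per 10000 in DC2 wells (274 to 1721) and 1365 in DC0 wells (184 to 2178).

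In thinned wells of plate 8, Sox2 and Sox18 were both detected in 24 of 65 DC2 wells and 11 of 94 DC0 wells, Sox2 alone in 6 DC2 and 13 DC0 wells, and Sox18 alone in 32 DC2 and 27 DC0 wells. Lrrc15 and Adamts15 were both detected in 13 DC2 wells and 0 DC0 wells, Lrrc15 alone in 9 DC2 wells and 1 DC0 well, and Adamts15 alone in 22 DC2 and 10 DC0 wells.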
